A study of Mus musculus with 18 samples.

Results

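The methionine cycle and transsulfuration enzymes were examined as 9 genes named by symbol, namely Mat2a, Mat2b, Ahcy, Mtr, Mtrr, Cbs, Cth, Bhmt and Gnmt, among 30172 genes measured by RNA-seq in the ovary of mouse pups. All 9 symbols were found. The pups were wild type F1 females born to C57BL/6J dams that had eaten either normal chow (F1-Control) or a diet with 3% methionine by weight (F1-HHcy, named for the hyperhomocysteinemia the diet is meant to induce in the dam). By the labels the diet began 4 weeks before mating and lasted through gestation and lactation, while the feeding period in the study's methods is another one. The pups themselves were not treated. Whole ovaries were taken at postnatal day 3, 7 or 21 (Pd3, Pd7 and Pd21), with 3 libraries for each diet and day and 18 in all. The labels do not say whether a library held the RNA of 1 pup or of several, or which libraries came from the same litter, so that p-values measure the spread between these libraries.

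The methionine cycle turns methionine into S-adenosylmethionine (SAM), the methyl donor of the cell, and after the methyl group is given away the remainder becomes homocysteine. Homocysteine is either remethylated to methionine or led into transsulfuration, which makes cysteine and supplies glutathione synthesis and hydrogen sulfide. The liver carries out the largest part of this traffic and has enzyme forms of its own, whereas most other tissues use Mat2a for SAM synthesis and methionine synthase for remethylation.

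Between 33630547 and 39399215 fragments per library lay on genes. Levels are FPKM, fragments scaled to gene length and library size, which can be compared between genes as far as the length used for each gene holds. Log2 fold changes compare F1-HHcy with F1-Control on log2(FPKM + 1), which shrinks the changes of genes near or below 1 FPKM, and a gene is called when its adjusted p (limma with Benjamini-Hochberg adjustment over all genes tested on that day) lies under 0.05. A gene was tested on a day if it reached 1 FPKM in at least 3 of the 6 libraries. Every germ cell, growing oocyte and granulosa cell marker listed for these ovaries was above 0 in all 18 libraries. In F1-Control Pd7 replicate 2 the FPKM summed to 532003, against 400360 to 469733 in the other libraries. By the labels the Pd21 libraries form batch 2 and all others batch 1, and what a batch was is not stated, so that each comparison of diets lay within 1 batch, while age and batch cannot be told apart between Pd21 and the earlier days. In whole ovary, fewer cells of a type and less RNA per cell cannot be told apart either.

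The level of transcript differed widely among the 9 genes. In each of the 6 groups Mat2b had the highest mean, followed by Mat2a and Ahcy, and these 3 genes made up 82.0% to 94.1% of the summed FPKM of the 9 in a library. Libraries of Mat2b and Mat2a overlapped in F1-Control Pd7 and Pd21, and those of Mat2a and Ahcy in F1-Control Pd3 and Pd21. The lengths behind the values were 2258 bases for Mat2b and 3390 for Mat2a, against 5001 and 4486 bases of all annotated exons joined. Mat2a had more fragments than Mat2b in F1-HHcy Pd7 (26024 against 21685) and fewer in F1-HHcy Pd21 (24513 against 25260). Group means of Mtr and Mtrr lay at 2.04 to 8.64 FPKM, those of Cth at 1.71 to 3.02 FPKM and those of Gnmt at 0.406 to 2.00 FPKM. Bhmt stayed at 0.0402 to 0.267 FPKM, which is 3 to 21 fragments per library. The order of Mtr, Mtrr, Cth and Gnmt among themselves varied between groups, and so did the place of Cbs. Cbs was eighth at 0.188 FPKM in F1-Control Pd3 ovaries, eighth again in F1-Control Pd7 ovaries, and the fourth gene in F1-HHcy Pd7 ovaries and in both groups at Pd21, where its mean reached 19.4 FPKM in F1-Control. These places depend on the length behind the Cbs values, 2748 bases against 7485 bases of joined exons. The highest group mean of Cbs was 103 times the lowest, against 1.19 times for Mat2b, 1.30 times for Mat2a, 1.77 times for Cth, 1.82 times for Mtrr, 2.94 times for Mtr and 4.92 times for Gnmt.

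**Figure D1:**
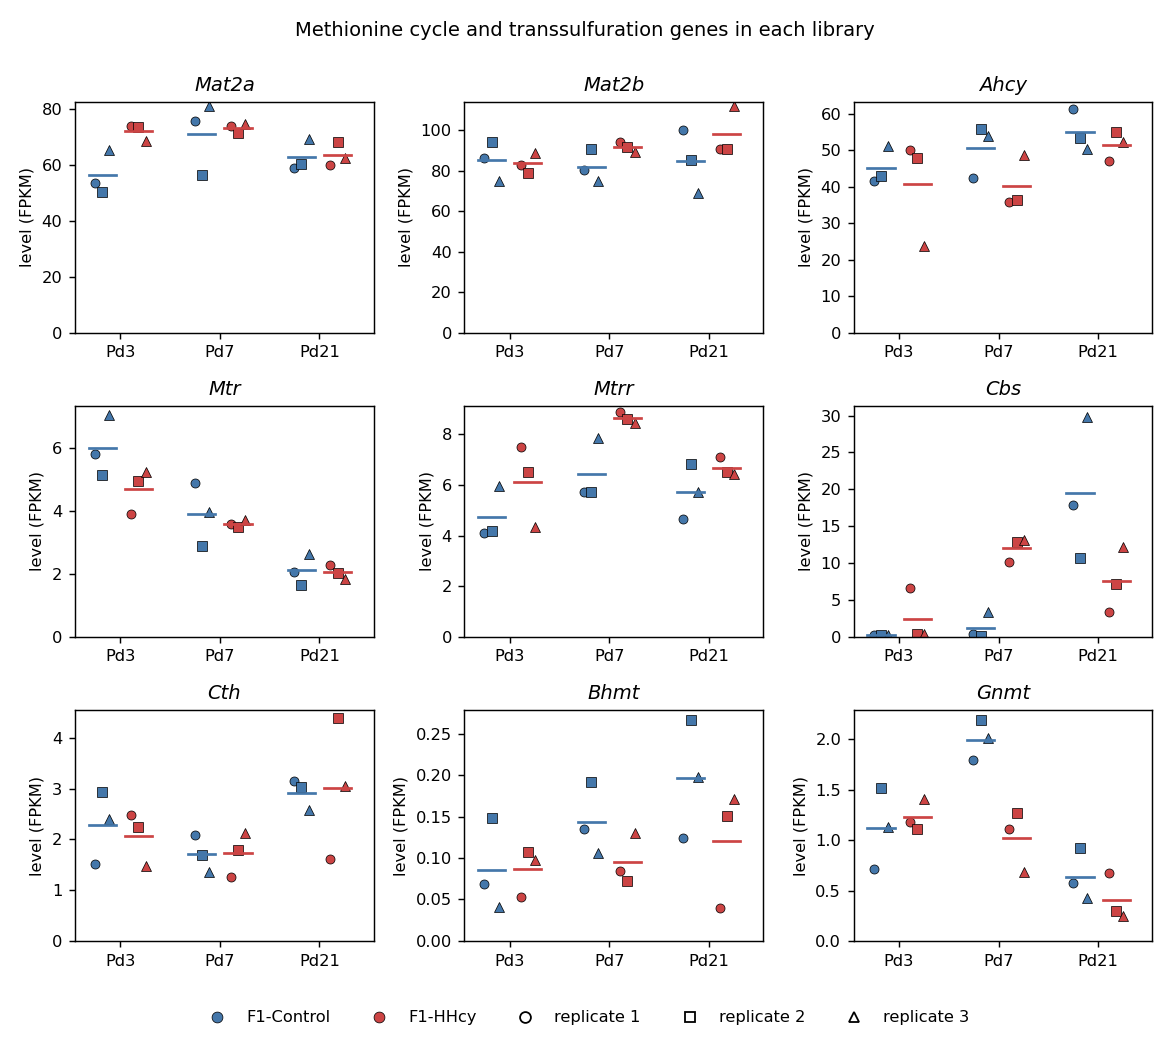
Level (FPKM, linear axes from 0) of the 9 genes in each of the 18 libraries, with blue points for F1-Control, red points for F1-HHcy, a symbol for each replicate and a line at the group mean. Cbs lies at or below 0.380 FPKM in 5 of the 6 Pd3 libraries and at 10.2 to 13.1 FPKM in the 3 F1-HHcy Pd7 libraries, while Mat2a, Mat2b and Ahcy stay high in every group.

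Of these genes, 2 were called between the diets, both at Pd7. At Pd3 none of the 7 genes tested was called, against 3.07% of the 13277 genes tested on that day, and 1 gene had an unadjusted p under 0.05, against 22.4% of all genes; limma-voom on recovered fragments called none either. At Pd7, 2 of 8 genes were called, against 11.9% of 13299 genes, with Cbs higher (background 5.88%) and Gnmt lower (background 5.98%) in F1-HHcy. At Pd21 none of the 7 genes tested was called, against 2.23% of 13350 genes, and 1 gene had an unadjusted p under 0.05, against 6.85% of all genes, with none called by limma-voom. The median log2 fold change of the genes tested was -0.02, 0.04 and -0.02 at Pd3, Pd7 and Pd21, beside medians of -0.03, -0.00 and -0.01 over all genes. The FPKM of the 2 groups did not overlap for 1 of 7 tested genes at Pd3 (27.9% of all genes), 3 of 8 at Pd7 (39% of all genes) and 0 of 7 at Pd21 (10.5% of all genes). Cbs at Pd3, Gnmt at Pd21 and Bhmt on every day missed the filter.

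**Figure D2:**
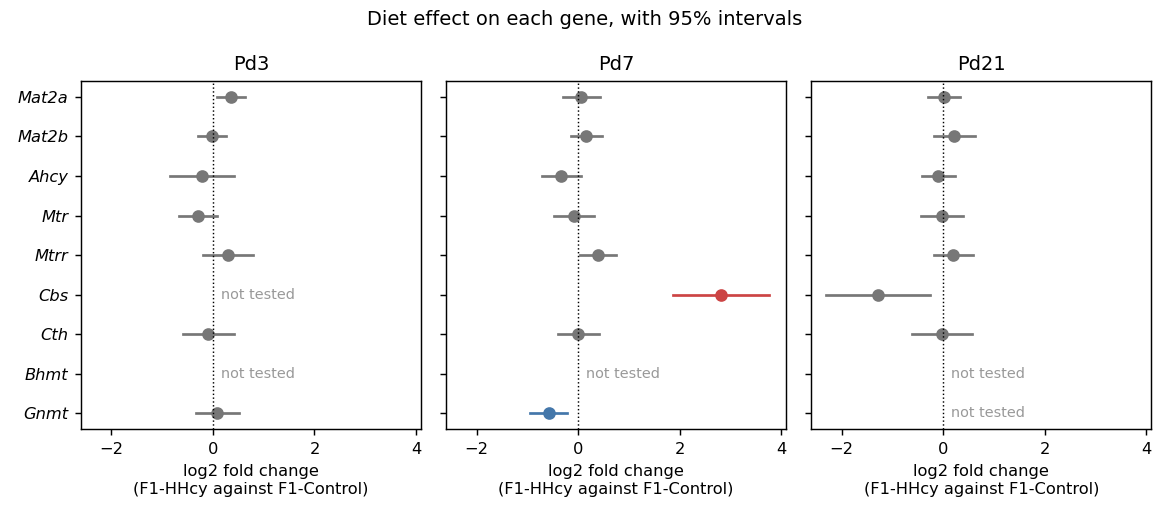
Log2 fold change (F1-HHcy against F1-Control, on log2(FPKM + 1)) of the 9 genes on each day, with lines for the 95% intervals of the limma fit, red for a gene called higher, blue for a gene called lower and gray for a gene not called. Cbs at Pd7, at 2.82, lies far to the right of all others, and Gnmt at Pd7, at -0.58, is the other gene called.

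Cbs encodes cystathionine beta-synthase, which joins homocysteine and serine in the first step of transsulfuration, and Gnmt encodes glycine N-methyltransferase, which uses up SAM by methylating glycine. Both genes lie on chromosome 17 of GRCm38 on the minus strand, Cbs at chr17:31608894-31637238 and Gnmt at chr17:46725664-46729168 (GENCODE M21). As the only genes of the 9 that were called between the diets, their promoters are printed here, 250 bases upstream of the RefSeq start on build GRCm38.p6, 5′ to 3′ on the minus strand, at chr17:31637206-31637455 for Cbs and chr17:46729166-46729415 for Gnmt. Capitals mark the motifs searched on both strands, namely the CCAAT box (CCAAT), the GC box (GGGCGG), the E-box (CACGTG), the TATA box (TATAAA) and the nuclear receptor half-site (AGGTCA).
Cbs: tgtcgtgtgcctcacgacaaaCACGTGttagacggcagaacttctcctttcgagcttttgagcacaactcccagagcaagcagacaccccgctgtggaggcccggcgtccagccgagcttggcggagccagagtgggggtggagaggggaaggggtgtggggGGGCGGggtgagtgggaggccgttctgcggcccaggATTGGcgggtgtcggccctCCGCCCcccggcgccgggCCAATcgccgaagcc
Gnmt: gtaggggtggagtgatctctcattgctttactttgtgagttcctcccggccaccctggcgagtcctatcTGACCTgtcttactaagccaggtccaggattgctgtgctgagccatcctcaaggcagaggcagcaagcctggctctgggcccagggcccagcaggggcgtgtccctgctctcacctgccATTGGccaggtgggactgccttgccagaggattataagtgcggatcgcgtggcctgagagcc

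The Cbs window holds 2 CCAAT boxes, 2 GC boxes, 1 E-box and 21 CpG, and the Gnmt window holds 1 CCAAT box, 1 half-site and 6 CpG. Of 32851 RefSeq promoter windows of the same length, 33.8% hold a CCAAT box, 32.7% a GC box, 6.02% an E-box, 12.4% a TATA box and 14% a half-site, and the median window holds 6 CpG. Promoter sequence was found for 8 of the 9 genes, and each of these windows holds at least 1 CCAAT box. A match of letters is a description of the window and no measure of binding.

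The largest difference between the diets in these genes was that of Cbs at Pd7, with more transcript in F1-HHcy. The F1-Control libraries had 0.357, 0.0618 and 3.29 FPKM in replicates 1, 2 and 3, and the F1-HHcy libraries had 10.2, 12.8 and 13.1 FPKM. The groups did not overlap, and among the controls replicate 3 stood well above the other 2, which were close to the level of Pd3. The means were 1.24 ± 1.79 and 12.1 ± 1.62 FPKM (SD, n = 3), a ratio of 9.74, from 372 and 3479 fragments in all. The log2 fold change was 2.82 (SE 0.43, 95% interval 1.87 to 3.77, limma adjusted p = 0.00557), and Cbs ranked 150 by p among the 13299 genes tested. It was called in all 6 fits that left out 1 library, with log2 fold changes of 2.43 to 3.44. Without a filter on low values the adjusted p was 0.0719, and other settings gave log2 fold changes of up to 4.78 (limma-voom). Cbs passed the filter through the F1-HHcy libraries and 1 control library.

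At Pd3 Cbs had 0.196, 0.203 and 0.166 FPKM in the F1-Control libraries and 6.66, 0.345 and 0.380 FPKM in the F1-HHcy libraries. Every F1-HHcy library lay above every control, but replicate 1 held 663 of the 733 fragments of its group. Cbs was not tested at Pd3 for its low level, and without a filter the log2 fold change was 1.03 (SE 0.69, limma adjusted p = 0.548).

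At Pd21 the order of the groups was the opposite, without a call. The F1-Control libraries had 17.8, 10.7 and 29.8 FPKM and the F1-HHcy libraries 3.30, 7.12 and 12.2 FPKM. The highest F1-HHcy library lay above the lowest control, so that the groups overlapped. The log2 fold change was -1.29 (SE 0.45, 95% interval -2.32 to -0.27, limma adjusted p = 0.403). A looser rule asks for an unadjusted p below 0.05 and a change beyond 0.58 on the log2 scale. By this rule 5.14% of all genes differed at Pd21, 5.06% were lower, and 1 member, Cbs, was among the latter.

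The diet effect on Cbs differed between Pd21 and Pd7, by -4.12 on the log2 scale (SE 0.85, 95% interval -5.91 to -2.32, limma adjusted p = 0.00864 in 1 fit of all 18 libraries, called in all 18 fits that left out 1 library). Of the 8 genes tested for this difference it was the 1 gene called, against 3.89% of 14607 genes. The difference of the diet effect between Pd7 and Pd3 was 1.79 (SE 0.85, adjusted p = 0.363) and that between Pd21 and Pd3 was -2.32 (SE 0.85, adjusted p = 0.162). None of the 8 genes was called in either of these comparisons, against 0.411% and 4.59% of all genes, limma-voom called none, and 1 gene in each (Gnmt and Cbs) had an unadjusted p under 0.05. Both of these also passed the looser rule, which 10% and 13% of all genes passed. Each diet effect lies within a batch, but the difference between Pd21 and Pd7 is also one between batches.

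Markers of steroid-producing and granulosa cells were also higher in F1-HHcy at Pd7. The summed level of 6 theca and steroid cell markers was 216, 286 and 449 FPKM in the F1-Control Pd7 libraries and 1162, 1195 and 1136 FPKM in the F1-HHcy Pd7 libraries, and 6 of 6 were called higher. The control with the most Cbs (replicate 3) had the highest theca sum of its group, while the F1-HHcy library with the most Cbs (also replicate 3) had the lowest of its own. At Pd3 the same sum was 679 FPKM in F1-HHcy replicate 1, the library with 6.66 FPKM of Cbs, against 349 and 71.3 FPKM in replicates 2 and 3 and 98.4 to 152 FPKM in the controls, where the library with the most Cbs had the lowest sum. The sum of 8 granulosa cell markers was 209 to 496 FPKM in F1-Control Pd7 and 512 to 870 FPKM in F1-HHcy Pd7 libraries, with 2 of 8 called higher. Erythroid genes were called lower at Pd7 in 5 of 5 tested, and germ cell and primordial oocyte markers in 7 of 8, with sums of 230 to 439 FPKM in F1-Control and 92.8 to 129 FPKM in F1-HHcy. At Pd21 no theca or granulosa marker was called by limma, and the theca sums overlapped at 583 to 1117 FPKM in F1-Control and 670 to 1772 FPKM in F1-HHcy. On that day 5 of 6 markers of multiciliated cells and oviduct epithelium were called lower. They summed to 413, 96.6 and 516 FPKM in F1-Control, in the same order of libraries as Cbs. In F1-HHcy they summed to 24.9, 9.81 and 17.3 FPKM, in another order than Cbs. The 4 adipocyte markers summed to 22.9 to 279 FPKM in F1-Control and 5.64 to 45.0 FPKM in F1-HHcy. Over all days the library with the most Cbs of its group had the highest theca sum in 2 of the 6 groups and the lowest in 3. Some of these ranks rest on small gaps, as for Cbs in F1-Control Pd3, with 20 fragments against 19 and 16. For the granulosa sum that library was highest in F1-HHcy Pd3, at 490 FPKM against 291 and 197. It was also highest at Pd7, at 496 against 209 and 239 FPKM in F1-Control and 870 against 546 and 512 FPKM in F1-HHcy. It was lowest in F1-Control Pd21, at 933 against 1210 and 1219 FPKM, and in between in F1-Control Pd3 and F1-HHcy Pd21. At Pd21 F1-HHcy replicate 2 had the highest theca sum of all at 1772 FPKM with 7.12 FPKM of Cbs. F1-HHcy replicate 3 had a theca sum of 670 FPKM with 12.2 FPKM of Cbs. The part of these cells in the Cbs values was not tested.

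**Figure D3:**
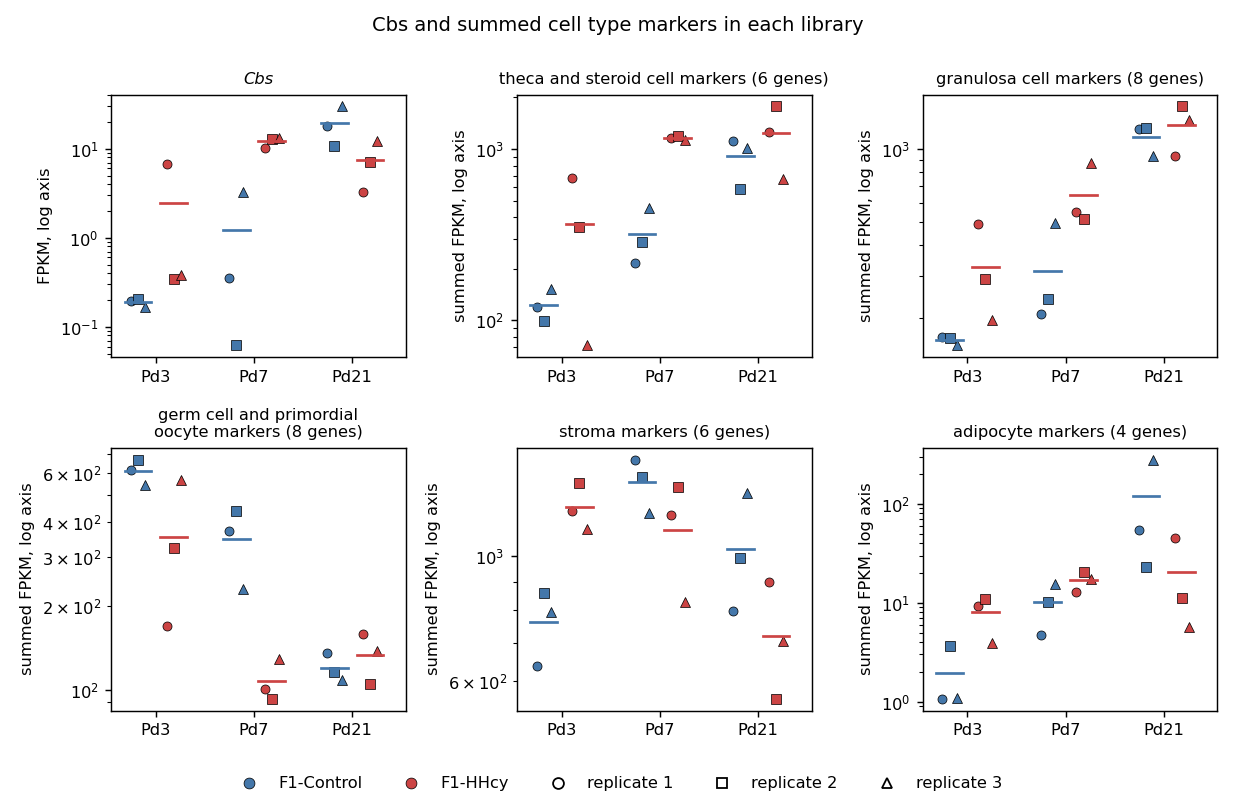
Cbs (FPKM) and the summed FPKM of 5 marker lists in each library, all on log axes, with blue points for F1-Control, red points for F1-HHcy, a symbol for each replicate and a line at the group mean. The F1-HHcy Pd7 libraries lie above the F1-Control Pd7 libraries for Cbs and for the theca and granulosa sums, and below them for the germ cell sum.

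The genes with the profile most like that of Cbs over the 18 libraries were Crispld2, Cyp2s1 and Omd, with root mean square differences of 0.43, 0.67 and 0.69 on the centered log2 scale among 14606 genes, where Cbs itself had an SD of 1.65. At Pd7 all 3 were called higher, Crispld2 with a log2 fold change of 2.12 (SE 0.41, limma adjusted p = 0.0117), Cyp2s1 with 1.59 (SE 0.26, adjusted p = 0.00684) and Omd with 2.17 (SE 0.22, adjusted p = 0.00129). Since they were chosen for this likeness, their changes add nothing to that of Cbs.

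Gnmt was called lower in F1-HHcy at Pd7, close to the threshold of the test. The F1-Control libraries had 1.79, 2.19 and 2.01 FPKM and the F1-HHcy libraries 1.11, 1.27 and 0.680 FPKM, with no overlap. The log2 fold change was -0.58 (SE 0.17, 95% interval -0.95 to -0.21, limma adjusted p = 0.0495), from 222 fragments in the controls and 109 in F1-HHcy. The call was lost whichever of the 6 libraries was left out, with adjusted p between 0.0698 and 0.137, and in 6 of 8 other settings. At Pd3 the libraries overlapped (0.716, 1.51 and 1.13 FPKM in F1-Control, 1.18, 1.11 and 1.41 FPKM in F1-HHcy) and the log2 fold change was 0.09 (SE 0.18, adjusted p = 0.802). At Pd21 Gnmt had 0.246 to 0.918 FPKM in the 6 libraries and was not tested. The most similar profiles were those of Zbtb8a, Mrps17 and Fxyd2, with root mean square differences of 0.19, 0.21 and 0.21, where Gnmt had an SD of 0.39. Germ cell markers were also lower in F1-HHcy at Pd7, as given above, and their part in the Gnmt values was not tested. A long noncoding RNA, Gm26904, spans the whole of Gnmt on the opposite strand.

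SAM is made by methionine adenosyltransferase, whose catalytic subunit outside the liver is encoded by Mat2a (chr6:72432799-72439558) and whose regulatory subunit is encoded by Mat2b (chr11:40679314-40695203). At Pd3 Mat2a had 53.4, 50.1 and 65.1 FPKM in F1-Control and 73.8, 73.6 and 68.4 FPKM in F1-HHcy libraries. All 3 F1-HHcy libraries lay above all controls, but the gene did not pass the test (log2 fold change 0.36, SE 0.12, 95% interval 0.08 to 0.64, limma adjusted p = 0.142). At Pd7 and Pd21 the groups overlapped, and the log2 fold changes were 0.06 (interval -0.30 to 0.43) and 0.02 (interval -0.29 to 0.33). Mat2b had 68.9 to 112 FPKM over the 18 libraries and overlapped between the diets on every day, with log2 fold changes of -0.02 (interval -0.29 to 0.25), 0.16 (interval -0.15 to 0.48) and 0.22 (interval -0.19 to 0.62). The long RNA Particl overlaps Mat2a on the opposite strand by 508 bases. The libraries were stranded, but whether the counting used strand is not given in the sources used here, and without it reads of such overlapping genes cannot be told apart. The same holds for Gnmt, for Ahcy, which Gm45609 overlaps by 317 bases, and for Bhmt, which Gm15622 overlaps by 3252 bases. Gm43314 overlaps Cth by 2231 bases on the same strand, where the use of strand would not separate their reads.

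Ahcy (chr2:155059310-155074497) encodes the hydrolase that frees homocysteine from S-adenosylhomocysteine, and its values depend on 1 library at Pd3. The Pd3 libraries had 41.4, 43.0 and 51.1 FPKM in F1-Control and 50.1, 47.9 and 23.8 FPKM in F1-HHcy. F1-HHcy replicate 3 was the lowest of all 18 libraries, and the other 5 Pd3 libraries overlapped. The log2 fold change was -0.21 (SE 0.27, limma adjusted p = 0.679), and without that library it was 0.12. Gm4737, a gene whose transcript is 99.7% identical to that of Ahcy over 2083 bases, had 23.0 FPKM in the same library and 8.57 to 14.8 FPKM in the other 17. Ahcy held 55.8% of the fragments of the pair there, against 82.0% to 87.2% in the other 17. With both genes summed, the Pd3 log2 fold change was -0.01 (SE 0.14, adjusted p = 0.983), a sum chosen after the values were seen. At Pd7 Ahcy had 42.5, 55.7 and 53.9 FPKM in F1-Control and 35.9, 36.4 and 48.6 FPKM in F1-HHcy, which overlapped, with a log2 fold change of -0.33 (interval -0.71 to 0.05, adjusted p = 0.214). At Pd21 it was -0.09 (interval -0.41 to 0.23).

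**Figure D4:**
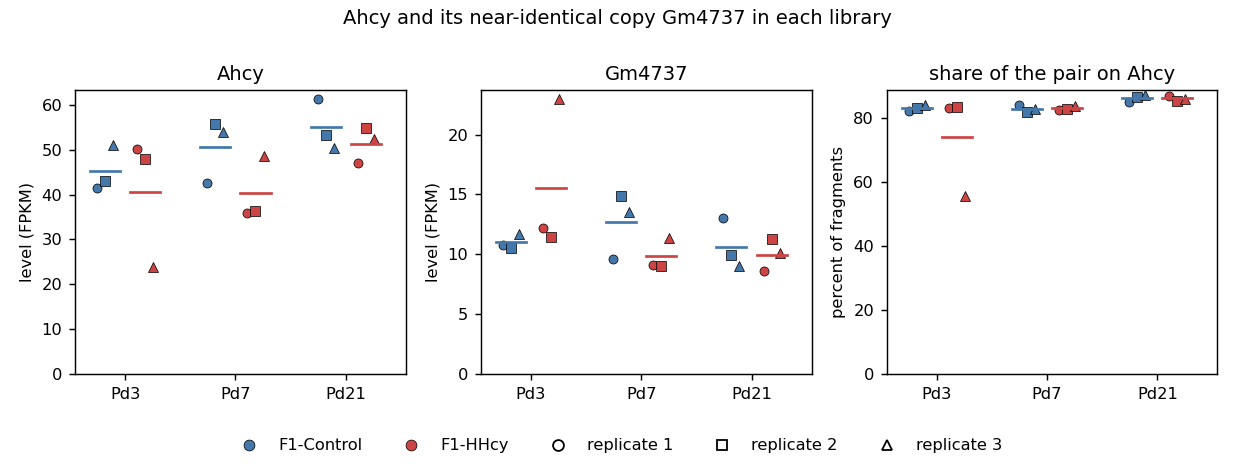
Ahcy and Gm4737 (FPKM) and the percent of their joint fragments that lay on Ahcy in each library, on linear axes from 0, with blue points for F1-Control, red points for F1-HHcy and a line at the group mean. F1-HHcy Pd3 replicate 3 stands apart in all 3 panels, with 55.8% of the fragments on Ahcy against 82.0% to 87.2% elsewhere.

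Remethylation of homocysteine with folate is carried out by methionine synthase (Mtr, chr13:12182712-12258113), and Mtrr (chr13:68560780-68582149) restores its cobalamin cofactor. At Pd7 Mtrr had 5.72, 5.73 and 7.86 FPKM in F1-Control and 8.88, 8.61 and 8.44 FPKM in F1-HHcy libraries. The groups did not overlap, but the gene did not pass the test (log2 fold change 0.39, SE 0.16, interval 0.04 to 0.74, limma adjusted p = 0.129). It overlapped at Pd3 and Pd21, with log2 fold changes of 0.30 (interval -0.19 to 0.79) and 0.20 (interval -0.19 to 0.59). Mtr was not called on any day, with log2 fold changes of -0.30 (interval -0.66 to 0.07), -0.08 (interval -0.48 to 0.32) and -0.03 (interval -0.44 to 0.39). The ratio of Mtr to Mtrr in FPKM was 1.18 to 1.42 in F1-Control Pd3 libraries, 0.518, 0.762 and 1.21 in F1-HHcy Pd3 libraries, 0.855, 0.500 and 0.505 in F1-Control Pd7 libraries, 0.402, 0.403 and 0.441 in F1-HHcy Pd7 libraries and 0.242 to 0.458 at Pd21. The ratio did not overlap between the diets at Pd7, and at Pd3 it did. At Pd7 Mtrr alone did not overlap either, nor did 39% of all genes. The ratio was not planned and was not tested.

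The other route of remethylation uses betaine, and its gene had the lowest level of the 9 in every group. Bhmt (chr13:93616675-93637961), an enzyme of liver and kidney, had 3 to 21 fragments in each library, and its paralog Bhmt2 had 0 to 4. Mat1a, the SAM synthase gene of the liver, was low at Pd3 (0.373, 0.414 and 0.414 FPKM in F1-Control, 0.928, 0.493 and 0.951 FPKM in F1-HHcy) and reached 1.60 to 2.87 FPKM at Pd21. Its groups did not overlap at Pd3 and Pd7, where it missed the filter, and without a filter it was not called (limma adjusted p = 0.281 and 0.227). Of 6 hepatocyte markers, 1 or 2 reached 1 FPKM in a library and up to 3 were at 0, with Alb at 0 to 0.468 FPKM, and most of their sum lay on Apoa1, at 1.93 to 4.50 FPKM in F1-Control Pd3, 7.22 to 55.1 FPKM in F1-HHcy Pd3 and 19.3 to 56.3 FPKM in the later libraries. At Pd7 1 hepatocyte marker was tested, and it was called higher in F1-HHcy (log2 fold change 0.80), as were 5.88% of all genes. The hepatocyte sums were 19.4 to 39.5 FPKM in F1-Control Pd7 and 42.9 to 51.0 FPKM in F1-HHcy Pd7. Kidney tubule markers summed to 0.294 to 5.92 FPKM.

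Cth (chr3:157894248-157925077) encodes cystathionine gamma-lyase, which follows Cbs in transsulfuration and releases cysteine. It was not called on any day. It had 1.35 to 2.08 FPKM in F1-Control and 1.26 to 2.14 FPKM in F1-HHcy libraries at Pd7, which overlapped, and its log2 fold changes were -0.09 (interval -0.59 to 0.41) at Pd3, 0.01 (interval -0.39 to 0.41) at Pd7 and -0.02 (interval -0.62 to 0.58) at Pd21. Cbs had 6.16 to 8.10 times the FPKM of Cth in F1-HHcy Pd7 libraries, against 0.0364, 0.172 and 2.43 times in the controls of that day. The size of this ratio depends on the lengths behind the values, 2748 bases for Cbs and 1819 for Cth. The joined exons have 7485 and 2791 bases.

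With age, from Pd3 to Pd7 and within batch 1, Cbs rose in F1-HHcy ovaries (log2 difference 2.42, SE 0.60, limma adjusted p = 0.0340). It was the 1 gene of 8 called there, against 5.48% of 14607 genes (2.29% higher), and the libraries did not overlap, at 0.345 to 6.66 FPKM and 10.2 to 13.1 FPKM. The call was lost with a pseudocount of 0.1 (adjusted p = 0.0507), without a filter (0.0871) and without F1-HHcy Pd3 replicate 2 or 3 or any F1-HHcy Pd7 library (0.0719 to 0.171). In F1-Control ovaries the difference was 0.63 (SE 0.60, adjusted p = 0.517). The contrast of these changes with age between the diets was not called (1.79, SE 0.85, limma adjusted p = 0.363). None of the 8 genes was called in F1-Control, against 11.4% of all genes (5.27% higher and 6.08% lower), although 3 (Mat2a, Mtr and Gnmt) had an unadjusted p under 0.05. Mtr was nearest to the threshold, with 5.80, 5.12 and 7.05 FPKM at Pd3 and 4.89, 2.87 and 3.97 FPKM at Pd7 (log2 difference -0.52, SE 0.17, adjusted p = 0.0547), and limma-voom called it lower (adjusted p = 0.0431).

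Of 41 other genes of methionine and sulfur metabolism, 1 of 37 tested was called at Pd3, 4 of 38 at Pd7 and 0 of 40 at Pd21, beside the 3.07%, 11.9% and 2.23% of all genes given above. At Pd21, 3 of them had an unadjusted p under 0.05, limma-voom called none, and 2 (Inmt and Sqor, both lower) passed the looser rule, which 5.14% of all genes passed. By that rule 2 of the others counted at Pd3, against 9.74% of all genes. The median log2 fold change was -0.08, -0.12 and -0.05 on the 3 days, against -0.03, -0.00 and -0.01 over all genes.

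The calls lay among the 11 genes of cysteine and sulfide use and the 8 small molecule methyltransferases. Of the former, 1 was called lower at Pd3, and 1 higher and 1 lower at Pd7. Of the latter, 7 were tested at Pd7, with 1 called higher and 1 lower. None was called among the liver and paralog forms, the partners of remethylation, the genes of SAM control and transport, those of adenosine removal, or the 9 genes of methionine salvage and polyamines. Gclm, the modifier subunit of glutamate-cysteine ligase, fell at Pd3 from 43.8, 49.0 and 36.6 FPKM in F1-Control to 15.8, 21.6 and 27.0 FPKM in F1-HHcy libraries (log2 fold change -0.997, SE 0.20, limma adjusted p = 0.0453). It fell again at Pd7, from 22.9, 21.0 and 17.1 FPKM to 11.8, 10.4 and 13.9 FPKM (log2 fold change -0.71, SE 0.16, adjusted p = 0.0232). On both days the groups did not overlap. Germ cell and primordial oocyte markers summed to 615, 669 and 543 FPKM in F1-Control and 169, 323 and 568 FPKM in F1-HHcy at Pd3, in the same order of libraries within each group as Gclm, with 0 of 8 called by limma. At Pd7 they summed to 371, 439 and 230 FPKM in F1-Control, in another order of libraries than Gclm. In F1-HHcy Pd7 they summed to 100, 92.8 and 129 FPKM, in the same order as Gclm, and 7 of 8 were called lower on that day. Erythroid genes were called lower in 6 of 6 tested at Pd3 and 5 of 5 at Pd7. The part of these cells in the values of Gclm, Gclc and Pemt was not tested. Gclc, the catalytic subunit of the same ligase, rose at Pd7 from 11.1, 8.29 and 16.8 FPKM to 23.3, 27.3 and 23.8 FPKM (log2 fold change 1.03, SE 0.22, adjusted p = 0.0176), so that the 2 subunits moved in opposite directions on that day. At Pd3 Gclc had 12.2 to 15.99 FPKM in F1-Control and 9.62 to 21.3 FPKM in F1-HHcy and was not called (adjusted p = 0.860).

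Inmt, which methylates indoles with SAM, rose at Pd7 from 0, 0.0553 and 0.240 FPKM to 1.43, 1.77 and 1.32 FPKM (log2 fold change 1.19, SE 0.16, limma adjusted p = 0.00336), after passing the filter through F1-HHcy alone. At Pd21 it had 15.5, 10.1 and 9.73 FPKM in F1-Control and 3.09, 1.83 and 8.53 FPKM in F1-HHcy, without overlap and without a call (log2 fold change -1.38, SE 0.41, adjusted p = 0.238). Pemt, which uses SAM to make phosphatidylcholine, fell at Pd7 from 5.73, 8.12 and 5.67 FPKM to 2.90, 4.68 and 3.38 FPKM (log2 fold change -0.69, SE 0.19, adjusted p = 0.0470). Inmt passed the filter in only 3 of the 6 fits that left out 1 library, and because it passes through the group where it is high, these fits say nothing of its stability, while without a filter on low values its limma adjusted p was 0.0371. Gclc was called in 3 of 6 fits that left out 1 library (limma adjusted p up to 0.0631), Gclm in 1 of 6 at Pd3 (up to 0.225) and 2 of 6 at Pd7 (up to 0.102), and Pemt in 1 of 6 (up to 0.192).

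Mettl16, an RNA methyltransferase that acts on Mat2a RNA according to the supply of SAM, had log2 fold changes of 0.04, 0.15 and -0.10 on the 3 days, with limma adjusted p of 0.576 or more. Ahcyl1 and Ahcyl2, relatives of Ahcy without its enzyme activity, were not called on any day, with log2 fold changes of 0.06, 0.23 and 0.02 for Ahcyl1 and -0.35, 0.13 and -0.11 for Ahcyl2.

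**Figure D5:**
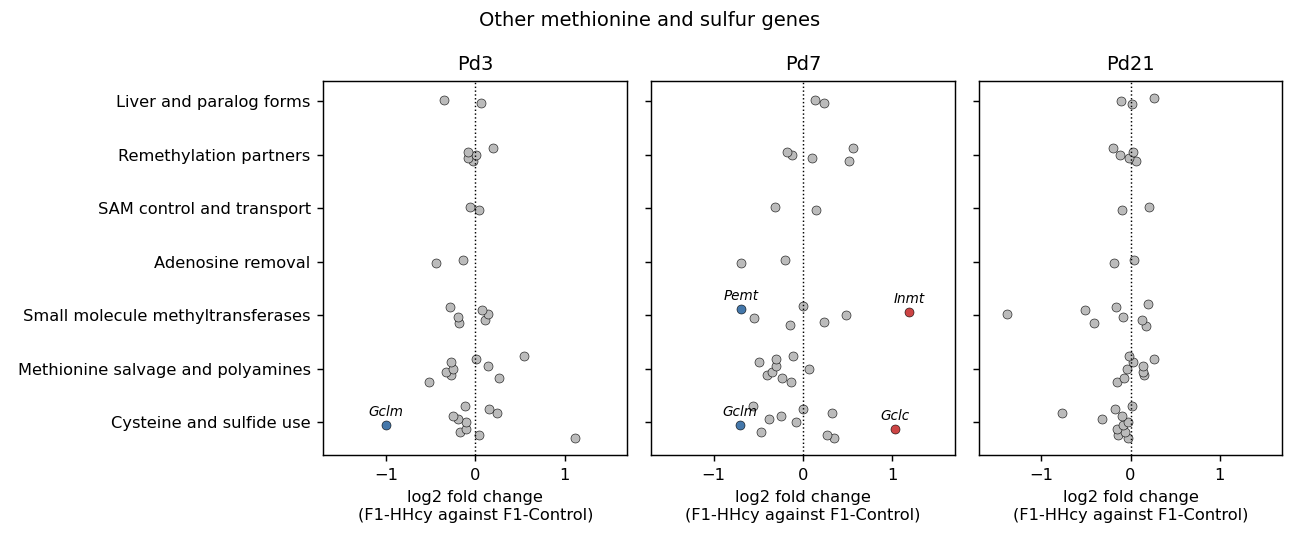
Log2 fold change (F1-HHcy against F1-Control, on log2(FPKM + 1)) of each tested gene of 7 groups of methionine and sulfur genes on each day, with red points for genes called higher, blue points for genes called lower and gray points for genes not called. Gclm is called lower at Pd3 and Pd7, Gclc and Inmt are called higher and Pemt lower at Pd7, and no gene is called at Pd21.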

How the data were processed

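Whole-ovary RNA of 18 libraries was sequenced from stranded poly-A libraries. The files hold a value for each gene symbol and the authors named no unit. These deposited values were read as FPKM because 1 length per gene and 1 factor per library turned them into whole fragments (within 0.02) for all 27294 genes above 0 in at least 3 libraries. The submitters' processing notes name Trimmomatic 0.39, STAR 2.7.9a, featureCounts 2.0.1, DESeq2 1.36.0 and build GRCm38, with no role or order. Whether reads shared by near-identical genes were split is not given in the sources used here.

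Diets were compared within each day with limma 3.58.1 (R 4.3.3, variance trend) on log2(FPKM + 1), keeping genes that reached 1 FPKM in 3 or more of the 6 libraries. Differences between days and ages came from 1 fit of all 18 libraries. The fits were tested on simulated data. A 2-sided exact permutation test of 3 against 3 libraries cannot go below p = 0.1 and was not used. Gene positions are from GENCODE M21, near-identical transcripts were found with blastn 2.17.0, and figures were drawn with matplotlib 3.10.9. Named genes were the 9 genes, of the 41 others those called on a day (at most the 6 with the smallest p) with Mat1a, Bhmt2, Mettl16, Ahcyl1 and Ahcyl2, and the 3 nearest profiles of each called gene. 1 further gene that the rule fixed by name is not reported here. Alternatives were a pseudocount of 0.1, no filter, 1 fit of all 18 libraries, the replicate number as a block, median-ratio scaling, removal of mitochondrially encoded and hemoglobin genes, the looser call rule, the 12 libraries of batch 1 alone and each library left out. Chosen after seeing the data were limma-voom on the recovered fragments, the sum of Ahcy and Gm4737, tests of members that missed the filter, and the alternatives for other genes called on a day. The ratios between genes were not planned either. Depth was 33630547 to 39399215 fragments per library, and a level of a few fragments, as for Bhmt, carries a large counting error. Members and lists were chosen with earlier results of these data known.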

Additional observations from a re-analysis of the deposited data

Results flagged for a closer look

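The diet effect on Cbs at Pd21 minus that at Pd7 was -4.12 on the log2 scale (SE 0.85, limma adjusted p = 0.00864), a difference between days that passed its own test. In all 3 F1-HHcy Pd7 libraries Cbs lay above every control, and at Pd21 the lowest 2 libraries were F1-HHcy libraries. Pd7 and Pd21 are also different batches.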

How the results depend on the processing

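Of the calls between the diets, that of Cbs at Pd7 held in every setting but 1, and that of Gnmt at Pd7 in few. No member was called lower at Pd7 with a pseudocount of 0.1, without a filter on low values, with the replicate block, with median-ratio scaling, without mitochondrially encoded and hemoglobin genes, or with limma-voom (a count of 0 in each), and leaving out 1 library gave 0 to 0. Without a filter 0 members were called higher at Pd7, where all genes above 0 were tested. Leaving out mitochondrially encoded and hemoglobin genes moved the median of all genes at Pd7 by 0.11 on the log2 scale. By the looser rule 1 member was lower at Pd21, and 1 member each was called for the difference of the diet effect between Pd7 and Pd3 and between Pd21 and Pd3. The number of members higher at Pd7 than at Pd3 in F1-HHcy was 0 with a pseudocount of 0.1 and 0 without a filter, and 0 to 2 when 1 library was left out; in F1-Control it was 0 to 1, and the number lower there was 0 to 1, and 1 with limma-voom.

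The number of other genes called at Pd3 was 0 without a filter, 3 with all 18 libraries in 1 fit, 0 with the replicate block, 2 by the looser rule and 0 to 6 when 1 library was left out (6 without F1-HHcy replicate 3, 0 without any other). At Pd7 it was 1 without a filter, 2 without mitochondrially encoded and hemoglobin genes, and 0 to 4 when 1 library was left out (0 without F1-HHcy replicate 2, 1 without replicate 1 of either group, 2 without F1-HHcy replicate 3 or F1-Control replicate 2, 4 without F1-Control replicate 3). At Pd21 it was 1 with all 18 libraries in 1 fit, 2 by the looser rule and 0 to 1 when 1 library was left out (1 without F1-HHcy replicate 3). Without a filter more genes were tested, and the cause of these changes was not tested.

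Signs turned only for log2 fold changes that were not called. Under median-ratio scaling they were 0.0060 for Mat2b at Pd3, -0.0096 for Cth at Pd7, 0.0115 for Mtr at Pd21 and 0.0272 for Cth at Pd21, and without mitochondrially encoded and hemoglobin genes 0.0141 for Mtr at Pd7. With 1 library left out they ranged from -0.40 to 0.12 for Ahcy, -0.11 to 0.0545 for Mat2b, -0.27 to 0.0553 for Cth and -0.0561 to 0.22 for Gnmt at Pd3, from -0.0927 to 0.17 for Mat2a, -0.24 to 0.0649 for Mtr and -0.10 to 0.14 for Cth at Pd7, and from -0.0338 to 0.0875 for Mat2a, -0.14 to 0.0885 for Mtr and -0.27 to 0.26 for Cth at Pd21.

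Equal replicate numbers do not mark a shared litter in the labels, and same-numbered libraries of a day had correlations of -0.34 to 0.09 across genes, with 3 of 18 libraries closest to their own number, so the numbers were not taken as a pairing. With the replicate block the log2 fold change of Gnmt at Pd7 stayed at -0.58 (limma adjusted p = 0.0547), and the block turned no other call of a member. Bhmt had 3 to 21 fragments per library, so that small differences could be missed. Cbs at Pd3 had 16 to 20 fragments in the controls, 34 and 36 in F1-HHcy replicates 2 and 3 and 663 in replicate 1. Its spread at Pd3 thus rests largely on 1 library.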
